A study of Mus musculus with 20 samples.

Results

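Accessible elements at the 9 striated muscle myosin heavy chain genes of the mouse (Myh1, Myh2, Myh3, Myh4, Myh6, Myh7, Myh7b, Myh8 and Myh13) were followed through 20 ATAC-seq peak lists. An element is a stretch of DNA covered by merged overlapping peaks that lies within 10 kb of 1 of these genes on GRCm38, or between genes of the same cluster. There were 38 such elements among 101352 merged regions of the genome, and they held 199 of 787806 peaks. Of the 38, 27 lay at the cluster on chromosome 11, 4 at the neighbouring genes Myh6 and Myh7 on chromosome 14, and 7 at Myh7b on chromosome 2.

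ATAC-seq cuts open chromatin with a transposase, so a peak marks DNA that was accessible in the population of cells sampled. The cells were C2C12, a mouse myoblast line that fuses into myotubes when induced to differentiate. Unmodified cells (WT) and cells without Setd2, the enzyme that trimethylates lysine 36 of histone H3 (KO), were sampled at day 0 (D0). They were sampled again at day 1 (D1) and day 5 (D5), either in a control medium (CTL) or with methionine restricted (MR), which makes 10 groups of 2 libraries. In the KO groups these came from 2 KO lines, 1 library from each. The WT libraries were numbered replicate 1 and replicate 2, and nothing in the labels says that they came from separate cultures, so the p-values below measure the spread between these libraries only. In lists from a population, fewer cells with an open element and less opening in each cell cannot be told apart.

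Myosin heavy chains are the motor proteins of the thick filament. Myh3 encodes the embryonic form and Myh8 the perinatal form, which come first in developing and regenerating muscle. Myh2, Myh1 and Myh4 encode the adult fast forms IIa, IIx and IIb, Myh13 a very fast form of eye muscles, Myh6 and Myh7 the alpha and beta cardiac forms (beta is also the slow skeletal form), and Myh7b a slow tonic form. The fast and developmental genes sit in a row on 1 chromosome, and the interval between Myh3 and Myh2 is known for enhancers of the fast genes and for the long noncoding RNA gene 2310065F04Rik, also named linc-Myh. Myh6, Myh7 and Myh7b each carry a microRNA in an intron.

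The promoters below run from 250 bases before to 50 bases after the start of the gene (RefSeq, GRCm38.p6, 5′ to 3′ on the gene's own strand). They show the start of Myh3, the gene nearest to 4 of the 7 elements that passed the genotype test below, of Myh1, the gene with the most calls within 1 kb of its ends, of Myh4, which had no element in any library, and of Myh7b. In the first 3, capitals mark the motifs found. In Myh7b, capitals mark the stretch that was called as a peak.
Myh3 promoter, chr11:67078050-67078349, plus strand: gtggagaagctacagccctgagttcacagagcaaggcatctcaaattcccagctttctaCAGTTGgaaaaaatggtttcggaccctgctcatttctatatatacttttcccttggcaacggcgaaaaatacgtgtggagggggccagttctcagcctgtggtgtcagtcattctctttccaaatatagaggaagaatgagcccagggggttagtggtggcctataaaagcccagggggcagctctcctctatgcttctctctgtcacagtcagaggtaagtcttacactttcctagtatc
Myh1 promoter, chr11:67199852-67200151, plus strand: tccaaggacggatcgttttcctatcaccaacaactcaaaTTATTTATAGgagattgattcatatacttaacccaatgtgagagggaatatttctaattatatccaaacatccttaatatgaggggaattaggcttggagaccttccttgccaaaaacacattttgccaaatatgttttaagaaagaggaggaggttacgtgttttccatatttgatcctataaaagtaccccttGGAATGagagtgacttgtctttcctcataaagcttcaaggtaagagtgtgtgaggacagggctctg
Myh4 promoter, chr11:67237562-67237861, plus strand: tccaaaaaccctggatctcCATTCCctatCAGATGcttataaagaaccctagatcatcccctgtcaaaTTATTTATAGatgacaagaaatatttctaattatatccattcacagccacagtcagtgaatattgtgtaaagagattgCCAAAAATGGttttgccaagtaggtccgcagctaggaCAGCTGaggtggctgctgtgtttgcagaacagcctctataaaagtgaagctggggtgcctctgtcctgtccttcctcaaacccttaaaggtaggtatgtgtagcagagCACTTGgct
Myh7b promoter, chr2:155610993-155611292, plus strand: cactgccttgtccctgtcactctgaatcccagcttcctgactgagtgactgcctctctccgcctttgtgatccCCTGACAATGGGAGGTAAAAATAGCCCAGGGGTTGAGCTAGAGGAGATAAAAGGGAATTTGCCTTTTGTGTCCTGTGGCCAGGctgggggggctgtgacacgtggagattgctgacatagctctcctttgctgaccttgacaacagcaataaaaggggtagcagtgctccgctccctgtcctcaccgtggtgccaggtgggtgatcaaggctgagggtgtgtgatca

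Motifs of 4 kinds of muscle regulator were searched on both strands. The letters CANNTG (the E-box that MyoD and myogenin bind) stood in 72.3% of 32817 RefSeq promoters of the same length, and its form CAGCTG, counted within it, in 16.3%. The letters CATTCC (the MCAT motif of Tead factors) stood in 14.7%, the MEF2 motif in 3.19% and the CArG box of Srf in 1.63%. The Myh3 promoter had 1 E-box, CAGTTG, from -191 to -186 counted from the start. The Myh1, Myh4 and Myh8 promoters shared 1 MEF2 match with identical letters, TTATTTATAG, from -211 to -202 in Myh1, -182 to -173 in Myh4 and -99 to -90 in Myh8. Myh4 had all 4 kinds of motif, with 3 E-boxes, of which 1 was CAGCTG, and a CArG box shared in kind with Myh13. Myh2 had none of them. A match is a run of letters and says nothing of binding.

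The 3 genes with an intronic microRNA share its seed almost in full. The mature forms are given with the seed (bases 2 to 8) in capitals, because the strongest element of all the loci lay 1868 bp from the hairpin of the last one.
mmu-miR-208a-3p, in Myh6: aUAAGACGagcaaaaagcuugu
mmu-miR-208b-3p, in Myh7: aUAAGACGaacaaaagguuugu
mmu-miR-499-5p, in Myh7b: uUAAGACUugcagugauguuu
The first 2 have the same seed, UAAGACG, and miR-499-5p has UAAGACU.

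The lists differed greatly in length, which bears on every count of calls. They held 20847 to 69881 peaks, except at D5 in KO line 1, whose CTL list had 644 peaks and whose MR list had 1881. Read depth was not used here. At the muscle markers, a peak lay within 1 kb of an end of Des, Cdh15 and Chrna1 in 10 WT and 8 KO libraries each, and of Myod1 in 10 and 7. Myog, the gene of the differentiation factor myogenin, had one in 8 WT and 0 KO libraries, and Acta1 in 8 and 1. The endothelial genes Pecam1, Cdh5 and Kdr, and Ptprc, Adipoq, Cdh1 and Epcam, had none in any library. Other genes of the blood, fat and epithelial lists did have calls (Spi1 in 10 WT and 8 KO libraries, Pparg in 10 and 7, Cd68 in 7 and 6, Krt14 in 5 and 3, Plin1 in 1 and 0). Spi1 thus had the counts of Des, and Pparg those of Myod1, so calls at gene ends do not set muscle apart from other cell types here.

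Most elements were small and lay away from the gene starts. They were 48 to 712 bp long, with a median of 172 bp, the same as over all regions. Of the 38, 14 overlapped a myosin heavy chain gene, 4 lay within 1 kb of an end of one, and none lay within 1 kb of an end of another protein-coding gene. In the following, an element is named by the nearest myosin heavy chain start and the distance of its middle from that start, so that Myh3 +3.1 kb lies inside Myh3.

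Most elements of the chromosome 11 cluster lay from Myh3 to Myh2. From 3.1 kb before Myh3 to the start of Myh2 there were 19 elements, 12 of them in the 68.7 kb between the end of Myh3 and the start of Myh2. Of these 12, 7 were called in WT and never in KO, as were 21.8% of all regions, and 6 were further than 10 kb from either gene. Then came 4 elements in Myh2 and at Myh1, and 4 in and beyond Myh13, of which 3 were called in KO line 1 only and 1 in 1 WT and 3 KO libraries. No element was called in any of the 20 libraries from Myh4 to Myh8: the longest empty stretch ran for 145.5 kb, from chr11:67205008-67350517, over most of Myh1, all of Myh4 and Myh8, and the first part of Myh13.

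**Figure D1:**
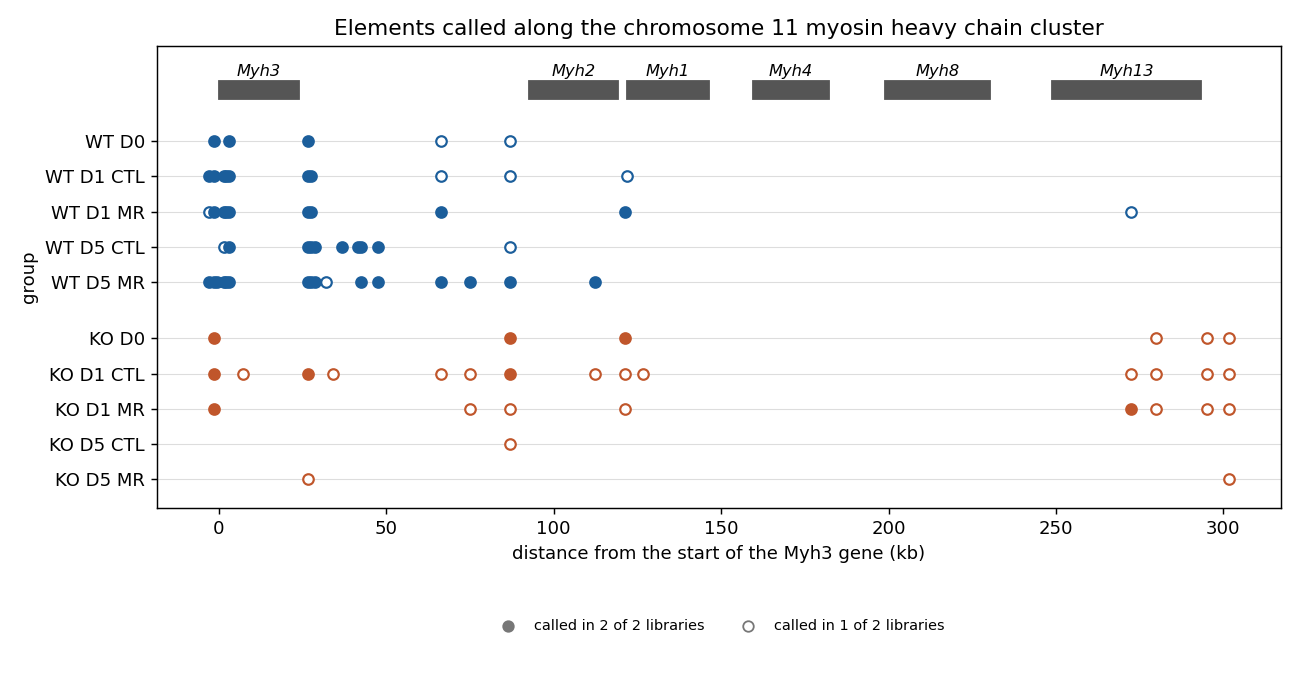
Elements called in each group along the chromosome 11 cluster, with distance from the start of the Myh3 gene in kb on the x axis and the 10 groups on the y axis; dark bars are the genes, filled circles were called in 2 of 2 libraries and open circles in 1 of 2. Calls crowd around Myh3 and, in WT at D5, along the interval up to Myh2, there is none over Myh4 and Myh8, and the calls beyond Myh13 are all in KO.

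In the full lists, the number of elements called per library was lowest in KO at D5 and highest in WT at D5 MR. At D0 the WT libraries had 6 and 9 elements and the KO libraries 7 (line 1) and 4 (line 2). At D1 the WT libraries had 17 and 10 in CTL and 18 and 12 in MR. The KO libraries at D1 had 19 (line 1) and 5 (line 2) in CTL, and 10 and 5 in MR, so that in CTL the KO lines lay on either side of both WT libraries. This holds for the full lists only. With the 20000 strongest peaks per list, the KO lines had 2 and 2 elements at D1 CTL and the WT libraries 6 and 5. At D5 the WT libraries had 13 and 15 in CTL and 22 and 20 in MR. The KO libraries at D5 had 0 and 3 in CTL, and 2 and 2 in MR. All 4 WT libraries of D5 were thus above all 4 KO libraries of that day. With the 20000 strongest peaks per list, the WT libraries of D5 had 12 and 13 elements in CTL and 6 and 6 in MR. The order of the 2 media was thus the reverse of that in the full lists. The KO libraries of D5 then had 0 and 1 in CTL and 2 and 1 in MR, where the lists of line 1 are shorter than 20000. KO line 2 had 29963 peaks at D5 CTL, more than the 22465 and 20847 of the WT lists, and 3 elements against 13 and 15. The 644 and 1881 peaks of KO line 1 at D5 move with its low counts, and their part in these was not tested.

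**Figure D2:**
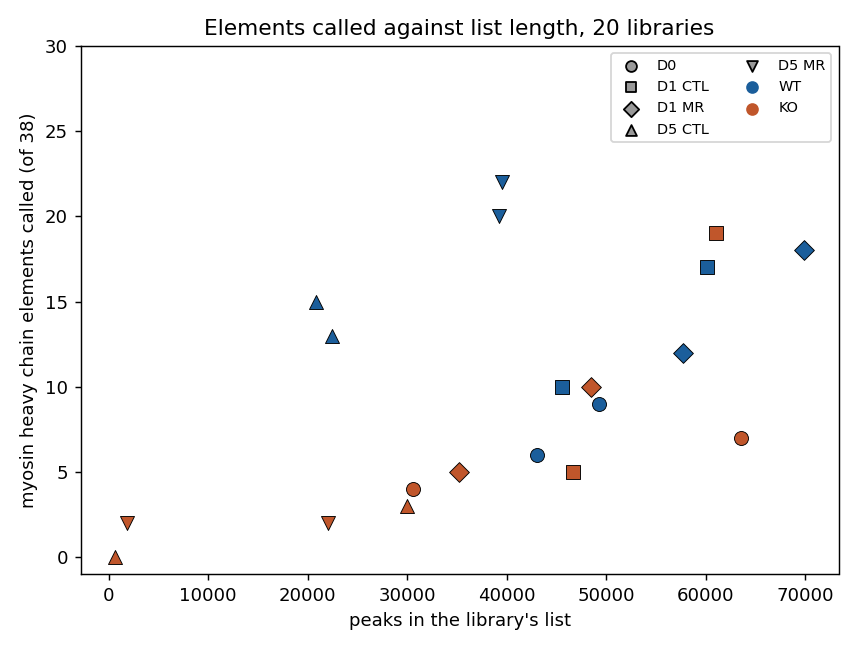
Number of the 38 elements called in each library (y axis) against the number of peaks in its list (x axis), with WT in blue, KO in orange and 1 marker shape for each day and medium. The 2 WT D5 CTL libraries have 13 and 15 elements in the 2 shortest WT lists, and KO line 2 at D5 CTL has 3 in a longer list.

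The genotypes differed at elements of Myh3, Myh7 and Myh7b, always with fewer calls in KO. Calls were compared in all 20 libraries with an exact two-sided permutation test of the genotype labels within day and medium (7776 arrangements, smallest possible p 0.000257), and p-values were adjusted by Benjamini-Hochberg over the 18700 regions that could reach a p of 0.05. In that test 16.1% of the regions were called less often in KO and 2.73% more often, at an adjusted p of at most 0.05. Of the 38 elements, 11 could be tested, 7 passed with fewer calls in KO and 0 with more, and 8 had an unadjusted p under 0.05, as did 50.8% of the regions tested. The median difference in the share of libraries with a call was -0.7 over these 11 and -0.3 over all regions tested. Over all 38 elements, called or not in the test, 27 had a lower share in KO, 10 a higher one and 1 the same, against 61.5% lower and 29.8% higher over all regions.

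These 7 calls rest on the full set of libraries. Without WT replicate 1, WT replicate 2 or KO line 2, 0 of the elements passed and 0 regions of the whole genome did, while 7, 9 and 10 elements had an unadjusted p under 0.05, as did 4584 of 16413, 5205 of 17057 and 7590 of 12182 regions. When KO line 1 was left out, 5 passed, against 24.7% of regions in either direction. Without only its 2 D5 libraries, an alternative chosen after seeing the data, 5 of 10 passed, against 11.5%. Without all D5 libraries 3 passed, against 18.8%: Myh3 +3.1 kb, Myh7 -2.9 kb and Myh7b +2.3 kb. With only the 20000 strongest peaks of each list, the difference between the genotypes fell from -1.0 to -0.2 at Myh7 -2.9 kb, from -1.0 to -0.3 at Myh7b +2.3 kb and from -0.7 to 0.0 at Myh3 +1.6 kb, and none of these passed. At a −log10 q of at least 5 it was -0.4 at Myh7 -2.9 kb and -0.2 at Myh3 +1.6 kb, and with 50% of the region covered it was -0.3 at Myh7 -2.9 kb, again without a pass. The 10 KO libraries are 2 lines sampled 5 times each, and libraries of the same line deviated together, which the permutation within day and medium does not take into account, so its p-values overstate the evidence that 2 lines give.

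Within Myh3, the embryonic gene, Myh3 +3.1 kb (chr11:67081127-67081635) was called in all 10 WT libraries and in 0 of the 10 from KO (p = 0.000257, adjusted p = 0.0353 in the permutation test). Its peak stood above 41.6% and 58.9% of the list at WT D0, which means that this percent of the list's peaks had the same or a higher q-value. At D1 its place was 84.6% and 72.8% in CTL and 81.7% and 69.5% in MR. At D5 it was 18.2% and 39.4% in CTL and 62.7% and 61.0% in MR. The WT peak was thus in the upper part of every D1 list and in the lower part of both D5 CTL lists, but places in lists of different lengths do not show a change in accessibility. Nearer to the start, Myh3 +1.6 kb (chr11:67079834-67080010) was called in 7 WT libraries, in all 4 of D1, 1 of D5 CTL and both of D5 MR, and in no KO library (adjusted p = 0.0412 in the permutation test). It was a weak peak, with a place in its list of 5.6% to 46.6% and a median of 21.8%.

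Beyond the end of Myh3, a pair of elements about 1 kb apart had the highest median places of the chromosome 11 cluster in WT, 91.2% and 81.2%. Myh3 +26.6 kb (chr11:67104800-67105039) was called in all 10 WT libraries and in 3 of the 10 from KO (adjusted p = 0.0412 in the permutation test). At WT D0 it stood low in the list, at 11.6% and 16.3%, with a fold enrichment of 3.06 in both libraries, as the authors give it. At WT D1 it stood at 93.7% and 93.9% in CTL and at 90.9% and 80.4% in MR, with folds of 8.0 to 10.98. At WT D5 it stood at 91.5% and 87.8% in CTL and at 93.0% and 97.7% in MR, where the second replicate had it as peak 886 of 39263. The 3 KO calls were at 9.1% (D1 CTL line 1), 48.7% (D1 CTL line 2) and 7.5% (D5 MR line 2). All WT places of D1 and D5 were above all KO places, and those of WT D0 lay among them.

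Myh3 +27.6 kb (chr11:67105735-67106116) was called in no library of D0 of either genotype, in all 8 WT libraries of D1 and D5, and in no KO library (p = 0.00154, adjusted p = 0.0353 in the permutation test for genotype). It stood at 76.1% and 74.7% of the list at D1 CTL, 62.0% and 63.2% at D1 MR, 90% and 90.6% at D5 CTL, and 92.8% and 86.2% at D5 MR. Among regions called in WT, 0.498% had this pattern of 8 of 8 calls after D0 and 0 of 2 at D0, and 1 element did.

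Upstream of Myh7, the beta cardiac and slow gene, Myh7 -2.9 kb (chr14:54997341-54997637) was called in all 10 WT libraries and in 0 of the 10 from KO (adjusted p = 0.0353 in the permutation test). It lies 2715 bp from the gene, within the annotated span of the long noncoding RNA gene Gm31251. It was a weak peak in every list, with a place of 2.4% to 49.9%, a median of 34.8% and folds of 2.58 to 4.8. The lowest place was that of WT D5 MR replicate 2 and the highest that of WT D1 MR replicate 1. The other 3 elements of this pair of genes (Myh7 -2.4 kb, Myh6 +20.5 kb and Myh6 +27.1 kb, the last in the gene Cmtm5) were called in 1 to 3 libraries each.

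At Myh7b, the slow tonic gene, elements that were called wholly or mostly in WT stood beside one that was called in nearly every library. Myh7b +2.3 kb (chr2:155613432-155613688), inside the gene, was called in all 10 WT libraries and in 0 of the 10 from KO (adjusted p = 0.0353 in the permutation test). Its place in the WT lists was 67.6% and 53.2% at D0, 64.7% and 54.8% at D1 CTL, 63.1% and 46.7% at D1 MR, 21.5% and 64.5% at D5 CTL, and 26.9% and 25.1% at D5 MR. Myh7b -4.7 kb (chr2:155606388-155606656), before the gene, was called in 9 of 10 WT libraries, all but WT D0 replicate 1, and in 1 KO library, D1 CTL line 1 (p = 0.00231, adjusted p = 0.0353 in the permutation test). The WT places ran from 29.4% at D0 to 75.3% at D5 MR replicate 1, and the KO call stood at 24.7%, below all 9.

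The pattern of 10 calls in WT and 0 in KO was found at 3 of the 38 elements, 1 at each locus, and at 100 regions or 0.0987% of all. They are the elements in Myh3, before Myh7 and in Myh7b described above.

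**Figure D3:**
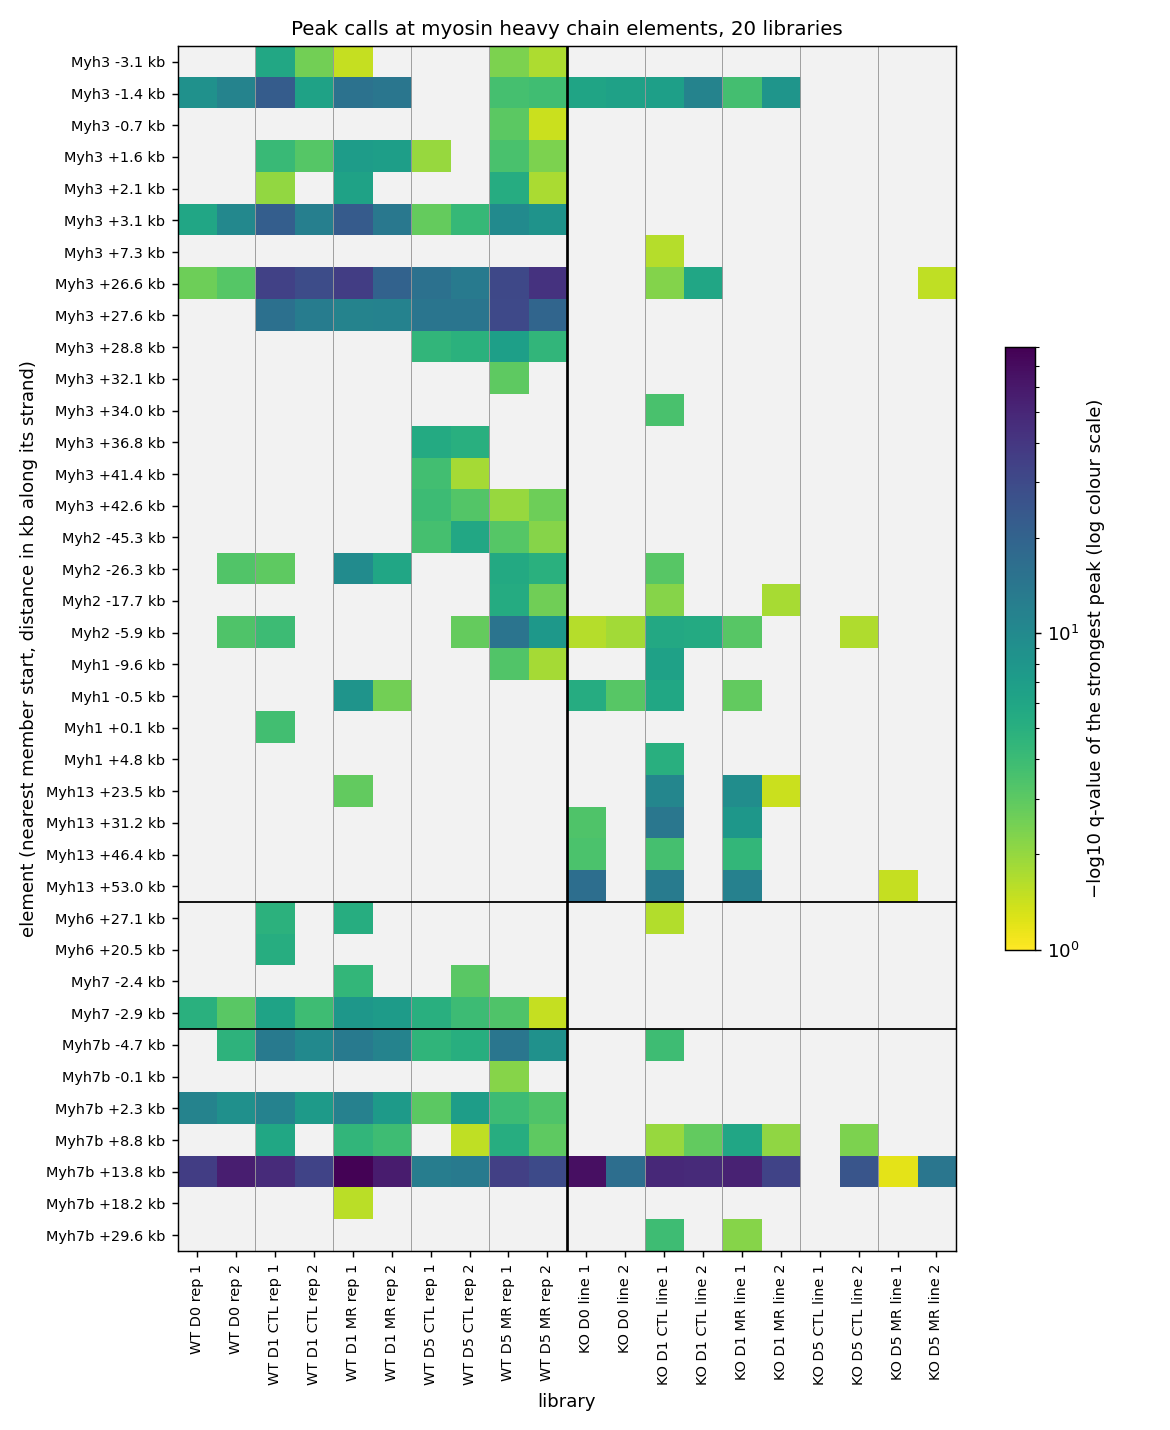
Calls of the 38 elements (rows, in order along each locus, named by the nearest start) in the 20 libraries (columns, WT left and KO right of the thick line); colour is the −log10 q-value of the strongest peak on a log scale and grey means no call. Myh7b +13.8 kb is coloured in 19 of 20 columns, Myh3 +3.1 kb, Myh7 -2.9 kb and Myh7b +2.3 kb in all 10 WT columns and no KO column, and the last Myh13 rows in columns of KO line 1.

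Other elements were called in both genotypes. Myh7b +13.8 kb (chr2:155624826-155625166), inside the gene and 1868 bp from the hairpin of miR-499, was called in 19 of 20 libraries, all but the list of 644 peaks. In WT it stood at 86.1% to 98.7% of the list with a median of 95.8%, and in KO at 32.1% to 99.1% with a median of 96.4%. The lowest KO place, 32.1%, was that of D5 MR line 1, and the next lowest, 89.7%, that of D0 line 2. In KO D1 CTL line 2 it was peak 413 of 46664. Its calls do not allow a genotype test to reach 0.05. Myh7b +8.8 kb was called in 6 WT and 5 KO libraries and Myh2 -5.9 kb in 5 and 6, and both had an adjusted p of 1.0 in the permutation test for genotype.

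Myh3 -1.4 kb (chr11:67076856-67077019), the upstream element nearest to the embryonic gene with many calls, was open in both genotypes before D5. It was called in 8 WT and 6 KO libraries: all 4 of D0 and all 8 of D1, then in both WT libraries of D5 MR and in no other library of D5. Its place was 23.4% to 85.3% in WT and 18.4% to 74.2% in KO, with medians of 59.8% and 51.2%. The genotypes overlapped over most of this range. Just upstream, Myh3 -3.1 kb was called in 5 WT libraries (both of D1 CTL, 1 of D1 MR, both of D5 MR) and no KO library, and did not pass (adjusted p = 0.0666 in the permutation test).

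In all, 19 elements (50%) were called in WT and in no KO library, against the 21.8% of all regions. Of these, Myh3 +32.1 kb, Myh1 +0.1 kb, Myh6 +20.5 kb, Myh7b -0.1 kb and Myh7b +18.2 kb were called in 1 library only. Another 6 were called in at least 2 WT libraries of D5 and in no earlier WT library. These 6 were 19.4% of the elements called in WT, against 0.78% of regions. At D5, 1 of the 2 KO lists in each medium held only 644 or 1881 peaks. Conversely, 7 elements (18.4%) were called in KO and in no WT library, against 20.1% of all regions, and all 7 were in KO line 1 only. Line 1 alone held the calls of 14.2% of all regions. Of the 7, Myh13 +31.2 kb, +46.4 kb and +53.0 kb were called in all 3 lists of line 1 at D0 and D1, a pattern of 2.15% of all regions. These 3 lie in and beyond the eye muscle gene. The strongest, Myh13 +53.0 kb (chr11:67379720-67380431, the longest element at 712 bp), stood at 68.5%, 65.5% and 61.4% of those lists and at 45.6% of the 1881 peaks of line 1 at D5 MR. Line 2 had none of the 3 in any of its 5 lists.

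**Figure D4:**
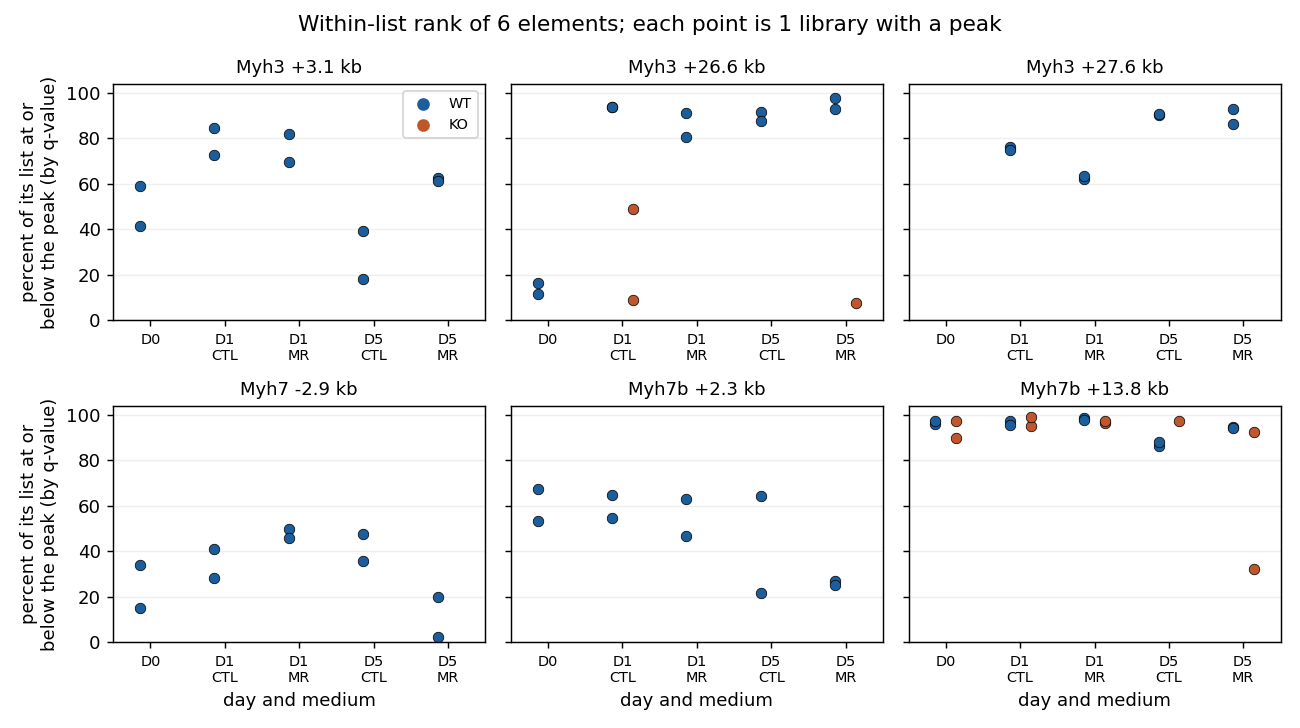
Place of 6 elements in the peak list of each library that called them, as the percent of the list's peaks with the same or a weaker q-value (y axis), by day and medium (x axis), with WT in blue and KO in orange; a library without a call has no point. Myh3 +26.6 kb stands low in WT at D0 (11.6% and 16.3%) and at 80.4% or more in all later WT lists, while Myh7b +13.8 kb stands at 86.1% or more in both genotypes except at 32.1% in KO D5 MR line 1.

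By day, the interval between Myh3 and Myh2 gained elements in WT at D5, while over the genome more regions were lost than gained. The counts that follow are over the elements of all 3 loci. In WT in CTL, 5 of the 23 elements called at D1 or D5 (21.7%) were called in both D5 and neither D1 library, against 0.409% of regions, and 2 (8.70%) were lost by the same rule, against 32.9%. In WT in MR, 7 of 27 (25.9%) were gained, against 1.69%, and 1 (3.70%) was lost, against 21.9%. All 5 gained in CTL lay in the interval, but of the 7 gained in MR, Myh3 -0.7 kb and Myh1 -9.6 kb lay outside it. With 2 libraries against 2 an exact permutation p cannot go below 0.333, and D5 against D1 in WT alone was not tested. Myh3 +28.8 kb, Myh3 +42.6 kb and Myh2 -45.3 kb were called in all 4 WT libraries of D5, in none of the 6 earlier WT libraries and in no KO library. This pattern of the 4 WT lists of D5 was found at 3 of the 31 elements called in WT and at 65 regions, 0.0803% of those called in WT.

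All 3 were weak peaks. Myh3 +28.8 kb stood at 41.2% and 45.9% of the list at D5 CTL and at 48.4% and 36.7% at D5 MR. Myh2 -45.3 kb (chr11:67125564-67125841) stood at 30.9% and 55.5%, and at 18.6% and 11.9%. Myh3 +42.6 kb (chr11:67120769-67120965) stood at 35.0% and 25.3%, and at 4.4% and 16.8%. The WT D5 lists were shorter than the 6 earlier WT lists.

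Over both genotypes, D5 was compared with D1 by permutation within genotype and medium (1296 arrangements, smallest possible p 0.00154). Of 16153 regions tested, 66.2% were called less often at D5 and 0.00619% more often. Unadjusted p-values under 0.05 were found at 80.1%. Of 3 elements that could be tested, 1 passed: Myh3 -1.4 kb, with 2 of 8 libraries at D5 and 8 of 8 at D1 (p = 0.00926, adjusted p = 0.0379 in the permutation test). This is a smaller share than over the genome and says nothing particular about the loci. Without WT replicate 1 its adjusted p was 0.0534 and without WT replicate 2 it was 0.0533, and without KO line 1 or KO line 2 its calls could no longer reach 0.05. The 3 elements of WT D5 could not be tested, with an exact permutation p of 0.0556 each, the smallest their calls allow.

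In WT alone, D1 and D5 were compared with D0 (8 against 2 libraries, 45 arrangements, smallest possible p 0.0222). Of 17759 regions, 0 passed the permutation test after adjustment and 799 had an unadjusted p under 0.05 (4.5%). Myh3 +27.6 kb, with 8 of 8 against 0 of 2, had p = 0.0222 and an adjusted p of 0.494 in the permutation test. From D0 to D1 in CTL, WT gained 3 of 17 elements (17.6%), against 7.44% of regions: Myh3 -3.1 kb, +1.6 kb and +27.6 kb. KO gained 2 of 19 (10.5%), against 1.91%: Myh3 +26.6 kb and Myh7b +8.8 kb. Neither genotype lost an element at this step, against 2.63% of regions in WT and 0.353% in KO. From D1 to D5, KO lost 2 of 19 elements in CTL, against 18% of regions, and 3 of 12 in MR (25.0%, against 19.3%). It gained none in CTL, where 0 regions did, and none in MR, against 0.00188% of regions. Of the 2 KO lists of D5 in each medium, that of line 1 held only 644 (CTL) or 1881 (MR) peaks. A gain in both lists could therefore hardly be seen, and the losses rest largely on line 2.

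Between genotypes within each day and medium, elements called in both WT and neither KO library were 4 of 13 at D0 (30.8%, against 5.36% of regions), 6 of 28 at D1 CTL (21.4%, against 6.45%) and 8 of 24 at D1 MR (33.3%, against 17.7%). At D5 they were 11 of 16 in CTL (68.8%, against 10.4%) and 18 of 23 in MR (78.3%, against 35.1%), where 1 of the 2 KO lists was that of 644 or 1881 peaks. The reverse was found for 1 of 13 elements at D0 (Myh1 -0.5 kb, 7.69%, against 2.51%). It was found for none at D1 CTL and D1 MR, against 5.41% and 1.61% of regions, and for none at D5 CTL and D5 MR, against 0.0333% and 0.0287%.

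Methionine restriction gave no call that passed at these loci, and none of the 38 elements could be tested. Over the genome, 0 of 3909 regions passed the permutation test within genotype and day, and 230 had an unadjusted p under 0.05 (5.88%). Within WT at D5, where the MR lists were the longer ones (39538 and 39263 peaks, against 22465 and 20847), 7 of 25 elements were called in both MR and neither CTL library (28.0%, against 27.9% of regions). That share was near that of the genome. Of these 7, 4 lay within 3.1 kb of the Myh3 start (-3.1 kb, -1.4 kb, -0.7 kb and +2.1 kb) and the other 3 were Myh2 -26.3 kb, Myh2 -17.7 kb and Myh1 -9.6 kb.

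The reverse, called in both CTL and neither MR library of WT D5, was found at 2 of 25 elements (8.0%, against 0.494% of regions). Myh3 +36.8 kb (chr11:67114949-67115171) stood at 51.7% and 47.9% of the 2 CTL lists, and Myh3 +41.4 kb (chr11:67119690-67119784) at 32.6% and 3.6%. Both lie in 2310065F04Rik, the linc-Myh gene, and neither was called in any other of the 20 libraries. With 2 libraries a side, this difference was not tested. In WT at D1, 1 of 21 elements, Myh1 -0.5 kb, was gained in MR (4.76%, against 10.2%) and 0 were lost, against 1.75%. In KO, 1 of 19 was lost in MR at D1 (5.26%, against 4.0%), which was Myh3 +26.6 kb, and 0 were gained, against 0.369%. At D5 in KO, where line 1 had 644 peaks in CTL and 1881 in MR, none was gained, against 0.0446%, and none was lost, against 0.0382%.

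Within 300 bases around the gene starts, few libraries had a call. The promoter windows of 7 genes (Myh2, Myh3, Myh4, Myh6, Myh7, Myh8 and Myh13) held no part of any element. At Myh7b, the 83 bp in capitals above were called in WT D5 MR replicate 1 only, at 7.2% of its list. At Myh1, the element Myh1 +0.1 kb (48 bp, WT D1 CTL replicate 1 only, at 20.4%) shared its first base with the last base of the printed window. Myh1 -0.5 kb (chr11:67199455-67199796), which ends before that window, was called in both WT libraries of D1 MR, both KO libraries of D0, and KO line 1 at D1 CTL and D1 MR, at 9.1% to 51.7% of the lists. Myh3 -0.7 kb, which ends 382 bp before the printed Myh3 window, was called in both WT libraries of D5 MR, at 16.6% and 2.1%.

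With a gene counted as called where a peak lay within 1 kb of either end, Myh1 was called in 3 WT and 4 KO libraries, Myh3 in 2 and 0, Myh7b in 1 and 0, and the other 6 genes in none. Within 2 kb the counts were 9 WT and 6 KO libraries for Myh3, 2 and 4 for Myh2, and 0 and 3 for Myh13, so that the low counts at Myh3 depend on the limit of 1 kb. The calls at Myh2 are those of Myh1 -0.5 kb, counted again. The calls at Myh13 are those of Myh13 +46.4 kb, all in KO line 1. In the same permutation test over 1850 protein-coding genes, 1.62% were called less often in KO and 0 more often. Myh1 was the only one of the 9 that could be tested and did not pass (adjusted p = 1.0 in the permutation test). Between D5 and D1, 63.7% of 1786 genes were called less often at D5. Myh1, at 0 of 8 libraries at D5, had an adjusted p of 0.0526 in the permutation test.

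Other contractile genes and regulators were read from the same tests. Of 37 sarcomere genes, 14 could be tested for genotype at their ends, 2 passed with fewer calls in KO and 0 with more, and 13 had an unadjusted p under 0.05. Over all 1850 genes, 1.62% passed with fewer calls in KO and 830 had an unadjusted p under 0.05. The 2 that passed were Mybph, a myosin-binding protein (10 WT and 0 KO libraries, adjusted p = 0.0397 in the permutation test), and Unc45b, the chaperone that folds muscle myosin (10 and 1, adjusted p = 0.0476). Without WT replicate 1, WT replicate 2, KO line 1 or KO line 2, neither passed and 0 genes of the genome did. Of the 4 smooth muscle and nonmuscle myosin heavy chain genes, Myh9 was called in 10 WT and 9 KO libraries and Myh10 in 10 and 10, while Myh11 and Myh14 were called in 6 WT and 0 KO libraries each and did not pass (adjusted p = 0.0647 in the permutation test). Of 17 regulators, 2 could be tested and 0 passed, with 2 at an unadjusted p under 0.05. Myog, at 8 and 0 libraries, had an adjusted p of 0.0522.

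By day, 1 of 1 sarcomere gene tested (Tnnc2, fast troponin C, adjusted p = 0.0436 in the permutation test) and 3 of 4 regulators tested (Nfix and Sox6 at 0.0413, Tbx15 at 0.0436), all transcription factors that act on the choice of muscle myosin or fibre type, were called less often at D5, as were 63.7% of all genes tested. With the KO libraries paired by line, without WT replicate 1 or WT replicate 2, or with the 20000 strongest peaks, none of these 4 passed, nor did any gene of the genome. Without KO line 1, 2 of the listed genes passed, as did 88.1% of the genes tested.

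Counted as regions within 10 kb, the myosin heavy chain loci had 7 of 11 tested elements lower in KO (63.6%), where 1 of the 11, Myh2 -26.3 kb, which did not pass, lies further than 10 kb from a gene. The sarcomere genes had 37 of 103 (35.9%), the other myosin heavy chains 3 of 15 (20%), the regulators 10 of 47 (21.3%) and all regions 16.1%. The difference between these shares was not tested.

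The genes whose number of called regions within 10 kb ran most like that of the chromosome 11 cluster were Limch1 (Spearman 0.931), Sohlh2 (0.914), Actn2, sarcomeric alpha-actinin (0.912), Rbm24 (0.906) and Cap2 (0.902). These are the highest of 16033 genes over 18 libraries, leaving out KO line 1 at D5, and are given as a description. The points share the library and its depth. The number of peaks in the list had a correlation of 0.343 with the cluster.

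The limit of 10 kb fell in empty stretches at all 3 loci. The outermost elements inside it lay 2887 bp before Myh3 (called in 5 libraries) and 8133 bp beyond Myh13 (4 libraries), 2321 bp (3) and 2715 bp (10) from Myh6 and Myh7, and 4587 bp (10) and 6448 bp (2) from Myh7b. The first regions outside lay 25391 bp before Myh3 (18 libraries) and 19315 bp beyond Myh13 (3), 15745 bp (1) and 11007 bp (7) from Myh6 and Myh7, and 18219 bp (17) and 16763 bp (1) from Myh7b.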

How the data were processed

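ATAC-seq was done on 20 libraries of C2C12 cells. Per the labels' protocols, DNA was tagmented with a commercial kit and amplified with 10 PCR cycles. The authors deposited 1 broadPeak list for each library, on GRCm38 per the submitters' processing notes. The aligner, filters, treatment of duplicates, shift for the transposase and peak caller are not given in the sources used here. Each deposited list gives for a peak a score, a ratio (the fold enrichment) and 2 significance values, the −log10 of its p-value and of its q-value. These served to order, select or describe peaks of the same list. Where places or folds of different lists stand side by side, they are a description and show no change. No read counts were used, so no depth or interval can be given. Lists are called per library, so longer lists hold more calls.

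Peaks of all lists sharing at least 1 bp were merged, and a region was called in a library where its peak overlapped it. Genes, starts and sequences come from RefSeq tables of GRCm38.p6, and all 9 genes matched by symbol. The place of a peak in its list is the percent of peaks at or below its −log10 q-value. Calls (1 or 0) were compared by exact two-sided permutation of labels within strata, adjusted by Benjamini-Hochberg over all regions or genes whose calls allow a p of 0.05, with a threshold of 0.05 on the adjusted p. The scripts were tested on simulated data.

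The genes, lists and tests were chosen with earlier results of these data known. The text names all 9 genes, every element within 1 kb of their ends, every element that passed, up to 8 elements per locus called in most libraries, the 5 genes of most similar pattern, and up to 4 genes per list and direction. Elements called only in some groups were also named after their values were seen. KO libraries of the same number are the same line, and their deviations from the group means correlated at 0.115 to 0.647 over 10 pairs of groups. WT libraries share only a number (-0.0296 to 0.0450), as do WT and KO (-0.0671 to -0.00615). Alternatives were a replicate block, each replicate left out, no D5 libraries, a −log10 q of at least 5, the 20000 strongest peaks, 50% of a region covered, and 2 kb in place of 1 kb. Python 3.11.15, pandas 2.3.3, numpy 2.4.6, scipy 1.17.1 and matplotlib 3.10.9 were used.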

Additional observations from a re-analysis of the deposited data

Results flagged for a closer look

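Under methionine restriction, the change from D1 to D5 in the number of myosin heavy chain elements called went in opposite directions in the genotypes. WT went from 18 and 12 elements at D1 to 22 and 20 at D5, and KO from 10 and 5 to 2 and 2. The difference between the mean changes was 11.5 elements and was not tested. The D5 MR list of KO line 1 held 1881 peaks and that of line 2 held 22062, and 2 elements were called in each. Their D1 MR lists held 48460 and 35201 peaks. The WT MR lists held 69881 and 57676 peaks at D1 and 39538 and 39263 at D5. With the 20000 strongest peaks per list, WT went from 4 and 4 elements to 6 and 6, and KO from 2 and 2 to 2 and 1.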

How the results depend on the processing

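For genotype, the number of elements that passed was 7 of 11 tested, against 18.8% of regions. With the replicate block the same 7 passed, of 7 that could be tested, against 66.6% of regions (WT and KO share only a number). The number was 3 without the D5 libraries (18.8% of regions) and 2 with a −log10 q of at least 5 (4.86%). It was 2 with the 20000 strongest peaks per list (15.7%). With 50% of the region covered it was 0 (6 at an unadjusted p under 0.05, while 0 of 18975 regions of the genome passed). It was 5 without the 2 D5 libraries of KO line 1 (11.5%), and 0 to 5 with 1 replicate left out (0 to 24.7%). For D5 against D1, 1 element passed, against 66.2% of regions. With the replicate block and with the block on KO lines only it was also 1, against 87.5% and 85.1% of regions. The number was 0 without the D1 and D5 libraries of KO line 1, where no element could be tested and 90.1% of regions passed. It was 0 with the 20000 strongest peaks (1 at an unadjusted p under 0.05, while 0 of 5511 regions passed). With 1 replicate left out it was 0 to 0 (0 to 91.1% of regions). For methionine restriction and for WT after D0, 0 elements and 0 regions passed under every alternative run. Leaving out a WT replicate in the WT series left no region that could be tested and has no value.

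For gene ends over the 4 lists, 2 genes passed for genotype, against 1.62% of all genes tested. The number was 0 with the replicate block (0 of 705 genes), 0 to 0 with 1 replicate left out and 0 without the D5 libraries (0 of 509). With 1 replicate left out, no gene of the genome passed either. It was 0 with a −log10 q of at least 5 (0 of 2428 genes). The number was 2 with the 20000 strongest peaks (against 1.64% of 2380 genes) and 5 within 2 kb (against 5.02% of 2012 genes). By day, 4 passed, against 63.7% of genes. The number was 2 with the replicate block (84.8% of genes) and 0 with the block on KO lines only (0 of 1524 genes). It was 0 to 3 with 1 replicate left out (0 to 92.5%). It was 2 without the D1 and D5 libraries of KO line 1 (88.1%), and 0 with the 20000 strongest peaks (0 of 1411). The number of elements was 38, and 19 within 2 kb, 17 with the 20000 strongest peaks, 32 within 10 kb of a single gene and 31 to 38 with 1 replicate left out. Of 73 single-element results under the alternatives, 23 stayed past the threshold, 50 did not and 0 reversed. The median place of the 8 elements that passed a test moved by at most a few percent of the list when peaks were ranked by fold. With 2 libraries per group and no read depth, an element without a call may be one that was not detectable in a short list.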
